A study of Mus musculus with 41 samples.

Results

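The regions described here are Runx2 binding sites that osteoblasts and chondrocytes had in common and that Runx2 was not listed at in 3T3 fibroblasts. They are the osteoblast Runx2 peaks that overlapped a chondrocyte Runx2 peak by 1 bp or more and overlapped no 3T3 Runx2 peak of day 0 or day 3 and no chondrocyte Foxa2 peak. The rule kept 757 of 10241 osteoblast Runx2 peaks (7.39%, 95% interval 6.90 to 7.91%), among 155773 peaks in the 8 lists of the series. Membership was thus chosen by measured peak positions in 5 lists. Values taken from those lists, which include gaps to 3T3 Runx2 and the placing of the osteoblast and chondrocyte peaks, are a description and support no difference. The Jun list was not used by the rule. The regions are called skeletal-restricted sites, a working name that stands for this rule and no more.

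Runx2 is a runt-domain transcription factor required for bone formation, and in cartilage it drives the maturation of chondrocytes towards hypertrophy. It binds DNA with its partner Cbfb, often at distal enhancers and next to other factors. AP-1 is a dimer of Jun and Fos family proteins that sits at many enhancers of fibroblasts and osteoblasts, and Foxa2 is a forkhead factor of hypertrophic chondrocytes.

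Runx2 was precipitated through a FLAG tag from calvarial osteoblasts and from rib chondrocytes of C57BL/6 mice at postnatal day 1 that carried 1 tagged knock-in allele (Runx2-BioFL/+), with 2 libraries each. Jun was precipitated from calvarial osteoblasts and Foxa2 from rib chondrocytes of wild-type C57BL/6 mice of the same age, with 1 library each. The FLAG precipitation was also done on 3T3 cells, a mouse fibroblast line, that overexpressed tagged Runx2 or green fluorescent protein (GFP). These cells were sampled on day 0 and on day 3 of culture in bone-inducing medium, and each state had 1 library. For day 3 the labels give BMP-2 at 100 ng/ml, ascorbic acid phosphate, β-glycerophosphate and fetal bovine serum. For day 0 they give none of these. The primary cells carried the tag on 1 endogenous allele, whereas the 3T3 cells overexpressed the tagged protein. The primary cells were released from dissected tissue by enzymes and were not sorted, as far as the labels say, and peak lists hold no expression values against which cell identity could be checked. All osteoblasts came from calvaria and all chondrocytes from rib, so cell type and skeletal site cannot be told apart.

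Each group had 1 peak list of positions alone, with no height or score, and read depth is unknown. The lists ranged from 2475 peaks (GFP day 0) to 50180 peaks (3T3 Runx2 day 3). No value therefore has a replicate error and no p-value is given. Intervals after shares are 95% Wilson intervals, those of differences between shares are 95% Newcombe intervals, and all cover counting error only. Neighbouring peaks are not independent, so the true uncertainty is wider. Sample labels assign the 3T3 Runx2 day 0 file to GFP day 3 and the reverse, and both files are used here under their own names. All coordinates are in build mm9.

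The rule removed most shared sites. Of the 4625 osteoblast Runx2 peaks shared with chondrocytes, 3343 (72.3%) overlapped 3T3 Runx2 at day 0, 3475 (75.1%) overlapped it at day 3, and 3734 (80.7%) overlapped one list or both. That left 891 shared peaks (19.3%, 18.2 to 20.4%) outside both 3T3 lists, of which 134 overlapped Foxa2. The remaining 757 were 16.4% of the shared peaks. Over all osteoblast Runx2 peaks, which include those the rule kept, 53.2% overlapped 3T3 Runx2 day 0, 58.5% Runx2 day 3, 45.2% chondrocyte Runx2 and 4.93% Foxa2. These shares set the number of members and are given only as a description.

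Absence from 3T3 cells held for the listed intervals and not always for their surroundings. Of the 757 sites, 228 (30.1%, 27.0 to 33.5%) lay within 1000 bp of a 3T3 Runx2 peak, and 81 lay within 100 bp. A further measure of 3T3 signal came from the GFP lists, which the rule did not use. The sites in none of the 4 lists of 3T3 cells numbered 647 (85.5%, 82.8 to 87.8%), and 469 (62.0%, 58.4 to 65.3%) were in none of them and more than 1000 bp from 3T3 Runx2. The label of sites absent from 3T3 cells thus applied in this stricter sense to 469 of the 757.

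Few sites sat at the edge of the rule. The least overlap with a chondrocyte peak among the members was 2 bp, at chromosome 2 from 170574605 to 170574663, and 6 members overlapped by 10 bp or less. Just outside that limit, an osteoblast peak on chromosome 5 from 122110644 to 122110765 abutted a chondrocyte peak with no shared base. At the 3T3 limit, 14 members lay within 10 bp of a 3T3 Runx2 peak. The nearest were on chromosome 17 from 45710076 to 45710160, which abutted a day 3 peak, and on chromosome 10 from 76714733 to 76714872, which abutted a day 0 peak. Just outside, 16 shared peaks without Foxa2 touched 3T3 Runx2 by 10 bp or less, the least being 2 bp at chromosome 13 from 59924425 to 59924574. For Foxa2, 3 members lay within 10 bp of a peak and 5 shared peaks outside 3T3 Runx2 were left out for an overlap of 10 bp or less.

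The skeletal-restricted sites were spread over all 20 chromosomes that had osteoblast Runx2 peaks. Chromosomes 1 and 2 had 59 each, the most of any, and chromosome X had 7. As a share of the shared Runx2 peaks of a chromosome, they ranged from 12.8% on chromosomes 15 and 17 (27 of 211 on each) to 23.2% on chromosome 18 (33 of 142, 17.1 to 30.8%). Chromosome 13 had 44 of 195 (22.6%, 17.3 to 28.9%) and chromosome 10 had 51 of 240 (21.3%, 16.5 to 26.9%). The interval of 17 chromosomes held the overall share of 16.4%, and those of chromosomes 10, 13 and 18 lay above it. These shares are membership under the rule, and 20 intervals that cover counting error only were read side by side. They are a description, and no chromosome is singled out by them.

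**Figure D1:**
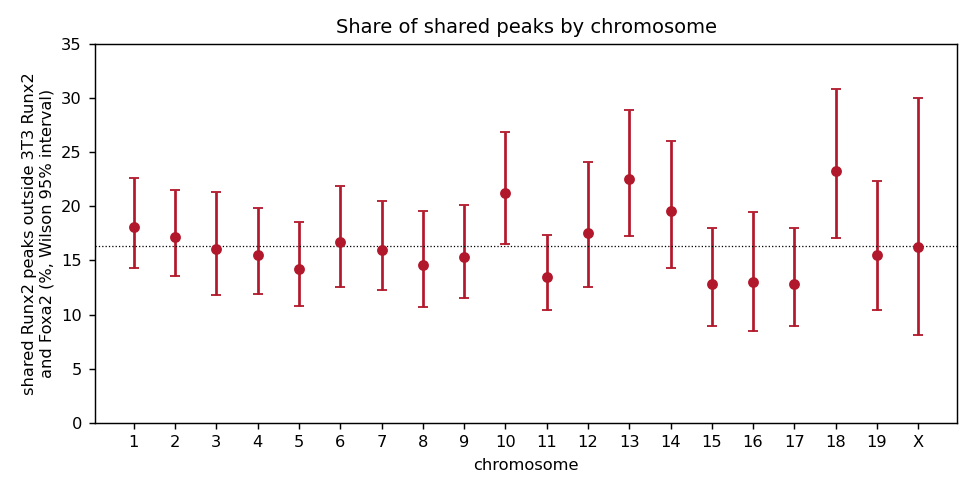
Share of the shared osteoblast and chondrocyte Runx2 peaks that lay outside the 3T3 Runx2 and Foxa2 lists, by chromosome. Points are shares in percent, bars are Wilson 95% intervals, and the dotted line is the share over all chromosomes (16.4%). The shares run from 12.8% to 23.2%, with the interval above the line on chromosomes 10, 13 and 18. The shares are set by the rule and are a description.

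The osteoblast and chondrocyte peaks of a site lay nearly on top of each other. The osteoblast peaks of the skeletal-restricted sites had a median width of 173 bp (quartiles 128 and 233 bp), their chondrocyte partners a median of 134 bp, and the median overlap was 102 bp. The centres of the partners were a median of 36.5 bp apart. They were within 50 bp of each other at 462 of 757 sites (61.0%, 57.5 to 64.4%), against 2112 of 3466 shared peaks without Foxa2 that were also in a 3T3 Runx2 list (60.9%, 59.3 to 62.5%). Both lists behind these distances were used by the rule, so the values are a description. The shared peaks in a 3T3 Runx2 list had a median width of 181 bp (quartiles 138 and 250 bp). The osteoblast-only peaks outside the 3T3 Runx2 and Foxa2 lists, the other class compared here (2732 peaks), had one of 190 bp (144 and 248 bp). The widths of the 3 classes overlapped over most of their range. The 757 sites used 750 distinct chondrocyte peaks, and 5 overlapped another member.

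The widest member was on chromosome 2 from 26428216 to 26428708 (493 bp), and a 3T3 Runx2 day 3 peak lay 96 bp away from it. The next was on chromosome 5 from 65016535 to 65017024 (490 bp), 6371 bp from 3T3 Runx2. The one after it, on chromosome 1 from 94370199 to 94370686 (488 bp), overlapped Jun and GFP day 3, and lay 14 bp from a 3T3 Runx2 day 3 peak. Of these 3 wide sites, therefore, only that on chromosome 5 was more than 1000 bp away from Runx2 of 3T3 cells.

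Jun is a subunit of AP-1, and its list from osteoblasts played no part in the rule. It overlapped 189 of the 757 skeletal-restricted sites (25.0%, 22.0 to 28.2%), against 25.3% of all osteoblast Runx2 peaks, so their share was close to that background. The classes on either side differed more. Jun overlapped 1229 of 3466 shared peaks in a 3T3 Runx2 list (35.5%, 33.9 to 37.1%) and 370 of 2732 osteoblast-only peaks outside 3T3 Runx2 (13.5%, 12.3 to 14.9%). The skeletal-restricted sites were 10.5 percentage points below the shared peaks in a 3T3 list (difference -10.5, interval -13.9 to -6.92), with a lower share on 16 of 20 chromosomes. They were 11.4 points above the osteoblast-only peaks (8.18 to 14.9), with a higher share on 16 of 20 chromosomes. Where Jun was present, the centres of the Jun and Runx2 peaks lay a median of 62.0 bp apart at the skeletal-restricted sites and 61.0 bp apart at the shared peaks in a 3T3 list.

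Shared sites that 3T3 Runx2 held on 1 day only had shares between these. Jun overlapped 97 of 333 shared peaks in the day 3 list only (29.1%, 24.5 to 34.2%), and the skeletal-restricted sites differed from them by -4.16 points (-10.1 to 1.46), an interval that includes 0. It overlapped 73 of 232 in the day 0 list only (31.5%, 25.8 to 37.7%), a difference of -6.50 points (-13.4 to -0.018). Shared peaks outside 3T3 Runx2 that the rule left out for Foxa2 had a lower share, with 18 of 134 (13.4%, 8.67 to 20.2%), so the skeletal-restricted sites were 11.5 points above them (4.12 to 17.3).

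**Figure D2:**
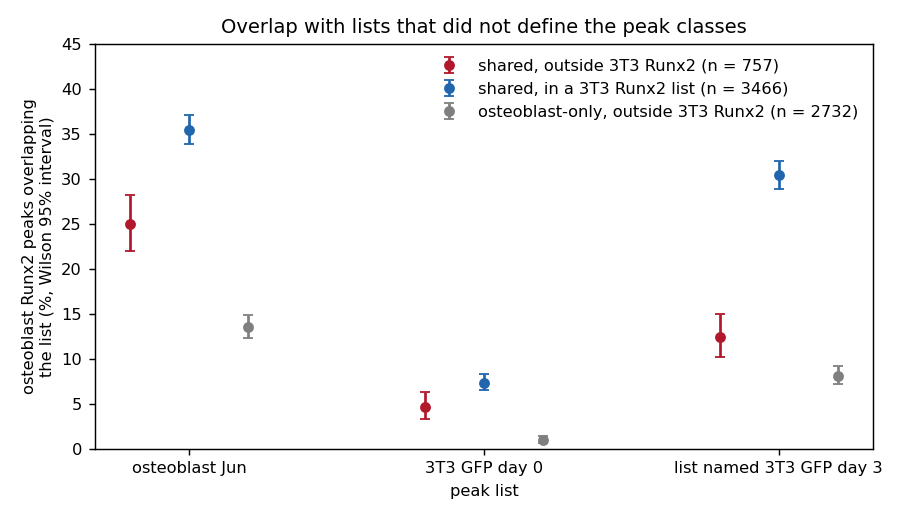
Share of osteoblast Runx2 peaks that overlapped each of 3 lists not used by the rule, for shared peaks outside 3T3 Runx2 (the 757 skeletal-restricted sites), shared peaks in a 3T3 Runx2 list and osteoblast-only peaks outside 3T3 Runx2, all without Foxa2. Points are shares in percent and bars are Wilson 95% intervals. For Jun the skeletal-restricted sites (25.0%) lie between the other classes (35.5% and 13.5%).

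By their names, the GFP lists measure what the FLAG antibody precipitates from 3T3 cells without tagged Runx2. Sample labels assign the GFP day 3 file to 3T3 Runx2 day 0, so for that list this reading is not settled. The GFP day 0 list overlapped 35 of the 757 sites (4.62%, 3.34 to 6.36%), against 4.55% of all osteoblast Runx2 peaks, which is the background share. GFP day 3 peaks covered 94 sites at least in part (12.4%, 10.3 to 15.0%), against 20.1% of all osteoblast Runx2 peaks. Together they marked 110 sites (14.5%, 12.2 to 17.2%), against 21.5% of all osteoblast Runx2 peaks. Among the shared peaks in a 3T3 Runx2 list, 7.36% were in GFP day 0 and 30.4% in GFP day 3, which is higher than among the skeletal-restricted sites. Among the osteoblast-only peaks outside 3T3 Runx2 the shares were lower, with 0.988% in GFP day 0, 8.13% in GFP day 3 and 8.42% in either. With that class weighted to the sites' spread over 10 equal parts of the file, the difference was 2.09 points for GFP day 0 (0.408 to 3.78) and -2.22 points for GFP day 3 (-4.99 to 0.539). With the shared peaks in a 3T3 list weighted likewise, it was -0.952 points for GFP day 0 (-2.45 to 0.545), an interval that includes 0. For GFP day 3 it was then -10.6 points (-13.0 to -8.16). The GFP and Runx2 lists of 3T3 cells come from the same line and antibody, so these shares are not independent of the rule. With the files of 3T3 Runx2 day 0 and GFP day 3 exchanged, 2.22% of the 857 sites then found were in GFP day 0 and 22.6% in GFP day 3.

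The Jun pattern was also read with the GFP sites set apart. Outside both GFP lists, Jun overlapped 145 of 647 skeletal-restricted sites (22.4%, 19.4 to 25.8%), against 1630 of 8036 among all osteoblast Runx2 peaks outside them (20.3%), which is within that interval. The other classes had 716 of 2338 for shared peaks in a 3T3 list (30.6%) and 275 of 2502 for osteoblast-only peaks (11.0%). The differences were -8.21 points (-11.8 to -4.38) and 11.4 points (8.11 to 15.0). Inside a GFP list no difference could be told at this number of sites. Jun overlapped 44 of 110 skeletal-restricted sites there (40.0%, 31.3 to 49.3%), against 966 of 2205 among all osteoblast Runx2 peaks in a GFP list (43.8%). The shares were 45.5% of 1128 shared peaks in a 3T3 list and 41.3% of 230 osteoblast-only peaks. The differences were -5.48 points (-14.6 to 4.30) and -1.30 points (-12.1 to 9.89), and both intervals include 0. By combination, 502 of the 757 sites (66.3%) overlapped neither Jun nor a GFP list, and 145 (19.2%) overlapped Jun alone. Among all 10241 osteoblast Runx2 peaks, 8036 were outside both GFP lists, and 1630 of these overlapped Jun. The combinations are thus a description and no trait of the sites is read from them.

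Position in the deposited osteoblast file moved with both properties, although no source states by what the file is sorted. The skeletal-restricted sites had a median position 51.9% of the way down the file, against 32.8% for shared peaks in a 3T3 list and 65.7% for osteoblast-only peaks outside 3T3 Runx2. Their chondrocyte partners stood a median of 42.5% down the chondrocyte file, against 26.0% for the partners of shared peaks in a 3T3 list. With the osteoblast file cut into 10 equal parts, 12.1% of the shared peaks were skeletal-restricted in the first part (89 of 733) and 31.0% in the last (96 of 310, 26.1 to 36.3%).

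Jun overlap also fell along the file, from 35 of 89 sites in the first part (39.3%, 29.8 to 49.7%) to 14 of 96 in the last (14.6%, 8.89 to 23.0%). Shared peaks with 3T3 Runx2 fell from 52.6% to 22.7%, and osteoblast-only peaks from 43.6% to 8.99%. The fall was thus not particular to the skeletal-restricted sites. The Jun share of the skeletal-restricted sites was lower than that of the shared peaks with 3T3 Runx2 in 9 of the 10 parts. It was higher than that of the osteoblast-only peaks in 8 of 10. In the first 2 parts it was below the osteoblast-only share, with 39.3% against 43.6% and 24.3% against 26.3%. When the compared class was weighted to the spread of the sites over the parts, the difference was -7.00 points (-10.5 to -3.54) from the shared peaks with 3T3 Runx2 and 7.07 points (3.49 to 10.6) from the osteoblast-only peaks. The difference against either class thus stayed on its side of 0, and it was smaller than without the weighting.

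**Figure D3:**
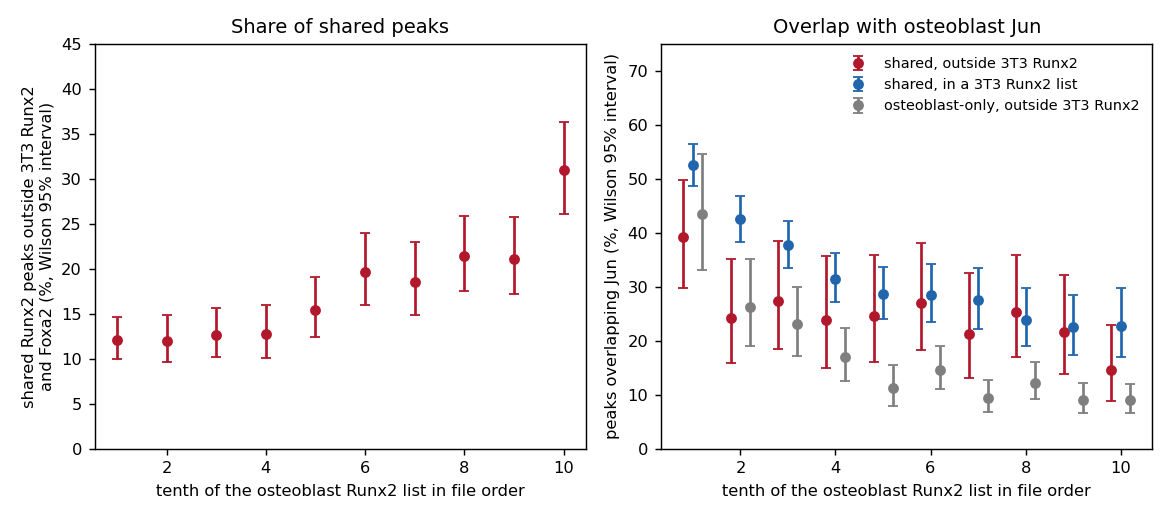
Left, the share of shared Runx2 peaks that lay outside the 3T3 Runx2 and Foxa2 lists, in 10 equal parts of the osteoblast list in file order. Right, the share of peaks overlapping osteoblast Jun in 3 classes, all without Foxa2. Points are shares in percent and bars are Wilson 95% intervals. The left share is 12.1% in the first part and 31.0% in the last, and the skeletal-restricted sites on the right lie below the shared peaks with 3T3 Runx2 in 9 of 10 parts.

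The head of the file stood apart from what followed. Among its first 100 peaks, 92 were shared with chondrocytes and 29 of those were skeletal-restricted (31.5%, 22.9 to 41.6%), whereas among positions 101 to 1025 the share was 60 of 641 (9.36%, 7.34 to 11.9%). Of these 29 sites, 19 were in the GFP day 0 list and 23 in a GFP list. The 19 in GFP day 0 were 65.5% of the 29, against 65 of all first 100 osteoblast Runx2 peaks. For the shared peaks in a 3T3 Runx2 list among the first 100 it was 35 of 54 (64.8%). The share was thus that of the head of the file and not particular to the skeletal-restricted sites. Of the 35 skeletal-restricted sites in GFP day 0, 27 were in the first of the 10 parts of the file. Beyond position 5121, 3 of 389 sites were in GFP day 0 (0.771%, 0.263 to 2.24%), against 29 of 1118 shared peaks in a 3T3 list (2.59%, 1.81 to 3.70%). The intervals overlap, and no difference is read from so few sites. For the 23 in a GFP list, and for these parts of the file, shares over all osteoblast Runx2 peaks were not computed. Whether the FLAG background of 3T3 cells bears on these early osteoblast and chondrocyte peaks was not tested.

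The earliest members in the file are short intervals with partners at nearly the same position. The first was on chromosome 19 from 4989126 to 4989228, with its chondrocyte partner from 4989134 to 4989224. It overlapped Jun and both GFP lists and lay 3281 bp from the nearest 3T3 Runx2 peak. The second was on chromosome 13 from 54852221 to 54852308, the third on chromosome 9 from 108729357 to 108729469 and the fourth on chromosome 15 from 77950294 to 77950445. All of these were in both GFP lists, and the fourth also overlapped Jun. The fifth, on chromosome 15 from 76352670 to 76352755, was in neither GFP list and had no Jun, and 3T3 Runx2 lay 9707 bp away. The first and the fourth were the earliest 2 members with Jun.

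Because the earliest members were mostly GFP sites, the earliest with Jun and outside both GFP lists are given too, a choice made after the values were seen. They lay on chromosome 4 from 21639454 to 21639563, 15111 bp from 3T3 Runx2, and on chromosome 4 from 127297250 to 127297352, 200629 bp from it. At the second of these the osteoblast and chondrocyte centres coincided (0 bp apart), and the overlap with Jun was 80 bp long. The next, on chromosome 7 from 88357939 to 88358148, was 3825 bp from 3T3 Runx2. These are sites where Runx2 in both skeletal cell types and Jun in osteoblasts were listed together and no 3T3 list had a peak.

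Distance to 3T3 Runx2 varied over several orders of magnitude. The 3T3 Runx2 lists set the membership of both classes given here, so these distances describe the sites and no difference is read from them. The median gap from a skeletal-restricted site to the nearest 3T3 Runx2 peak was 8245 bp (quartiles 407 and 44758 bp), against 9405 bp (1328 and 42731 bp) for osteoblast-only peaks outside 3T3 Runx2. The nearest was a day 3 peak at 525 of the 757 sites (69.4%), and the day 3 list was also the longer of the pair. A 3T3 Runx2 peak lay within 1000 bp of 30.1% of the skeletal-restricted sites and 23.4% of the osteoblast-only peaks. At 10000 bp the shares were 52.4% and 51.2%, and at 100000 bp 84.7% and 84.0%.

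**Figure D4:**
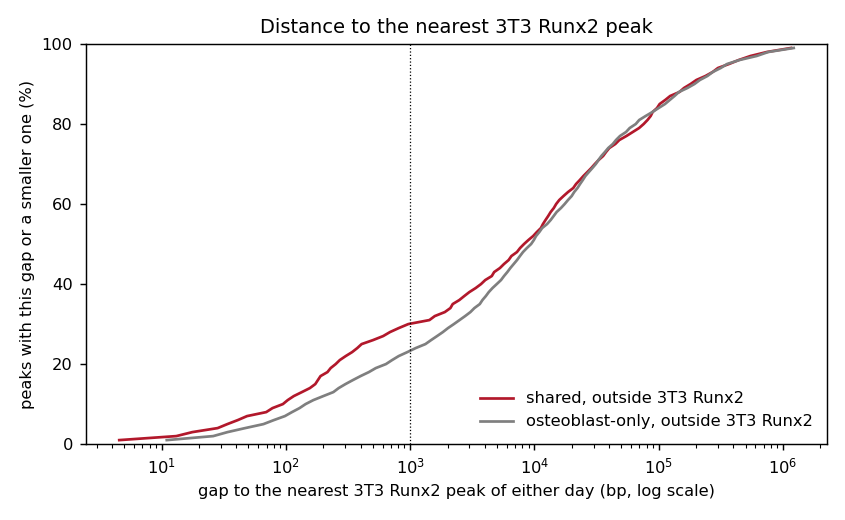
Cumulative share of peaks by gap to the nearest 3T3 Runx2 peak of either day, in bp on a log axis, for the 757 skeletal-restricted sites and the 2732 osteoblast-only peaks outside 3T3 Runx2 and Foxa2. The dotted line marks 1000 bp, where 30.1% of the skeletal-restricted sites and 23.4% of the osteoblast-only peaks had a 3T3 Runx2 peak; the curves meet by 10000 bp (52.4% and 51.2%).

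The sites farthest from any 3T3 Runx2 peak, picked after their values were seen, lay in wide spans without one. The farthest was on chromosome 3 from 25044035 to 25044377, with a gap of 2007261 bp. It had no overlapping Jun peak, but one began or ended 27 bp from it. The next were on chromosome 8 from 104622864 to 104623293 (1854303 bp) and on chromosome 14 from 94290096 to 94290109 (1761974 bp), with the nearest Jun peak 353724 bp and 345122 bp away. Over 100000 bp of separation was seen at 116 of the 757 sites (15.3%, 12.9 to 18.1%).

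Among the sites themselves, Jun was more frequent near 3T3 Runx2. The gap was taken from lists that the rule used, so this split is a description. Jun overlapped 86 of 228 sites within 1000 bp of a 3T3 Runx2 peak (37.7%, 31.7 to 44.2%), and 103 of 529 farther away (19.5%, 16.3 to 23.1%), a difference of 18.2 points (11.2 to 25.4). Osteoblast-only peaks outside 3T3 Runx2 also fell, from 164 of 640 (25.6%) to 206 of 2092 (9.85%). The fall was thus not particular to the skeletal-restricted sites. The share among the near skeletal-restricted sites was in the range of the shared peaks that 3T3 Runx2 overlapped (35.5%, 33.9 to 37.1%). In steps of distance it was 21.9% of 169 sites between 1000 and 10000 bp, 18.9% of 244 between 10000 and 100000 bp and 17.2% of 116 beyond. GFP sites thinned out likewise, from 50 of 228 (21.9%) within 1000 bp to 8 of 116 (6.90%) beyond 100000 bp. The osteoblast-only peaks went from 140 of 640 (21.9%) to 2 of 437 (0.458%), and 21.5% of all osteoblast Runx2 peaks were in a GFP list. The median file position of the skeletal-restricted sites was 51.6% within 1000 bp and 55.2% beyond 100000 bp. Whether file position bears on either fall was not tested.

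In each of the 4 steps of distance the skeletal-restricted sites had Jun more often than the osteoblast-only peaks outside 3T3 Runx2. The steps come from lists that set the membership of both classes, so the values by step are a description and support no difference. Within 1000 bp the osteoblast-only share was 25.6% (difference 12.1 points, 5.10 to 19.3), and between 1000 and 10000 bp it was 10.3% (11.6 points, 5.58 to 18.7). Between 10000 and 100000 bp it was 10.5% (8.35 points, 3.43 to 14.0), and beyond 100000 bp 7.78% (9.46 points, 2.98 to 17.6). The higher share did not extend to every shared peak that 3T3 Runx2 lacked, since those with Foxa2 had Jun at 13.4%, against 13.5% of the osteoblast-only peaks. Inside a GFP list the difference from the osteoblast-only peaks was -1.30 points, with an interval that includes 0. The skeletal-restricted sites also came earlier in the file, and their overall share of 25.0% was close to the 25.3% of all osteoblast Runx2 peaks.

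**Figure D5:**
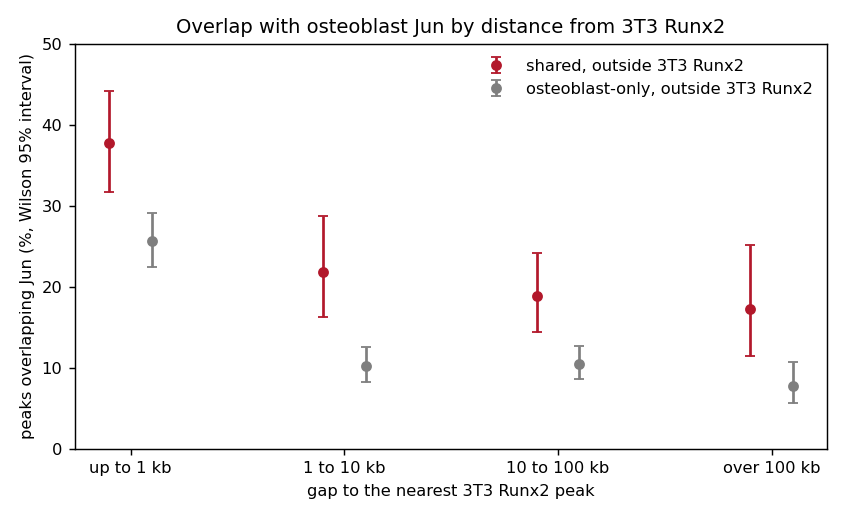
Share of peaks that overlapped osteoblast Jun, by gap to the nearest 3T3 Runx2 peak, for the 757 skeletal-restricted sites and the 2732 osteoblast-only peaks outside 3T3 Runx2 and Foxa2. Points are shares in percent and bars are Wilson 95% intervals. The skeletal-restricted sites go from 37.7% within 1000 bp to 17.2% beyond 100000 bp, and lie above the osteoblast-only peaks (25.6% and 7.78%) in each of the 4 steps. The gaps come from lists that the rule used, so the values are a description.

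The sites mostly stood alone among their own kind, in neighbourhoods that other Runx2 peaks occupied. Another skeletal-restricted site lay within 100 kb of 132 of the 757 (17.4%, 14.9 to 20.3%), though any class this small has few neighbours of its own. An osteoblast Runx2 peak of any class lay within 100 kb of 559 (73.8%, 70.6 to 76.8%), against 78.9% (77.5 to 80.2%) of shared peaks in a 3T3 list. The median number of 3T3 Runx2 day 3 peaks within 100 kb was 7 around the skeletal-restricted sites and 12 around shared peaks in a 3T3 list, and for day 0 it was 4 and 8. A count of 3T3 peaks is lowered by the rule itself, which bars such a peak at the site. For Jun the median was 2 around the skeletal-restricted sites and 3 around shared peaks in a 3T3 list, and for Foxa2 it was 2 around both. Around the osteoblast-only peaks outside 3T3 Runx2 the medians were 6 for day 3, 3 for day 0, 2 for Jun and 2 for Foxa2. The lower medians for 3T3 Runx2 and Jun were thus not particular to the skeletal-restricted sites. The nearest Foxa2 peak lay a median of 32133 bp from the skeletal-restricted sites, against 34104 bp from shared peaks in a 3T3 list.

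Windows of 100 kb held 63 groups of neighbouring skeletal-restricted sites, 59 of them pairs and 4 of them trios. Some pairs were intervals at nearly the same position, the tightest of them spanning 383 bp on chromosome 2. The pair on chromosome 10 from 98725585 to 98726107 overlapped each other and had the same chondrocyte partner. Such pairs also count among the sites with another within 100 kb. The tightest trio spanned 26718 bp on chromosome 9 from 36927746 to 36954463. None of its members had Jun or GFP, and 3T3 Runx2 day 3 had no peak in that span. Osteoblasts had 3 Runx2 peaks and chondrocytes 3, where peaks of a span are those wholly inside it. The chondrocyte partner from 36927431 to 36927898 reached beyond the span and was not among them. The second spanned 35033 bp on chromosome 13 from 56397434 to 56432466, with Jun at 1 of its sites, 3 osteoblast and 4 chondrocyte Runx2 peaks and again no 3T3 Runx2 day 3 peak. In both spans every osteoblast Runx2 peak was therefore skeletal-restricted, and the nearest 3T3 Runx2 peak lay 61293 bp from a site of the first trio and 98305 bp from a site of the second. The third trio, on chromosome 13 from 63134799 to 63221881, lay in a span with 5 osteoblast Runx2 peaks and 5 of 3T3 Runx2 day 3, and 1 of its sites was 184 bp from 3T3 Runx2. The fourth trio, with a span of 96913 bp on chromosome 14, had no day 3 peak. The trios thus differed in whether Runx2 of 3T3 cells was listed around them. A gene annotation and a genome sequence of build mm9 were not used here, so no gene or motif is given for these positions.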

How the data were processed

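The data are 8 peak lists of mouse ChIP-seq. The start and end of each peak are as the authors deposited them, another unit than a count, with no score. Coordinates are in mm9, and the tools listed are DiffBind and Bowtie, per the submitters' processing notes. How peaks were called, against which control and threshold, and whether the 2 libraries behind each primary Runx2 list were pooled is not given in the sources used here. Members and lists were chosen with earlier results of these data known.

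Lists were matched to groups by name. Overlap meant 1 bp or more and was checked against bedtools 2.31.1. Shares have Wilson and differences Newcombe 95% intervals, and the functions were tested on simulated data. Weighted differences used 10 equal parts of the osteoblast file. Named regions were the 3 widest, the 5 earliest, the earliest 2 with Jun, the 3 groups with most members within 100 kb and those at the limits; others are marked as chosen later. The planned motif shares and gene names were not run without an mm9 genome. The 23 ATAC-seq libraries and the input and IgG libraries are not analysed here. Scripts ran in Python 3.11.15 with pandas 2.3.3, SciPy 1.17.1, NumPy 2.4.6 and matplotlib 3.10.9.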

Additional observations from a re-analysis of the deposited data

How the results depend on the processing

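The difference in Jun share between the skeletal-restricted sites and the shared peaks with 3T3 Runx2 stayed negative under all 16 alternatives, from -16.1 to -5.78 points. It was -5.78 points when overlap had to reach 50% of the shorter interval. It was -16.1 when sites within 1000 bp of 3T3 Runx2 were moved to the compared class, whose Jun share was then 35.6% and not 35.5%. Among alternatives added after seeing the data, which weight over file order, it was -6.45 without GFP sites and -5.85 with the crossed lists exchanged. The Jun share itself was 21.5% with the 50% overlap, 19.5% without sites within 1000 bp, 29.0% in the first 50% of the lists and 33.0% in the wider 50%. The number of sites was 252 in the first 50% and 188 in the wider 50% of the lists, which hold fewer possible partners by construction, and 529 to 1090 under the other 10 alternatives. With the crossed lists exchanged, 2.22% of sites were in GFP day 0, 22.6% in GFP day 3, and 21.9% had another site within 100 kb. Without sites within 1000 bp, 9.45% were in GFP day 3. Counted as chondrocyte peaks the median width was 129.5 bp. Within 50 kb, 11.1% had another site. The causes of these shifts, other than list length and window size, were not tested. No paired analysis was possible because each group had a single list. For the same reason no replicate could be left out. Depth is unknown, so a site outside a list may be one that its library was too shallow to call. The motif shares were not run.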
